A study of Bos taurus with 4 samples.

Results

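Perforin, granzyme, granulysin and serglycin transcripts, with those of killer lectin-like receptors usually read beside them, were followed in bovine gamma delta T cells exposed to an apple polyphenol extract (APP). The genes sought by symbol were PRF1, GZMA, GZMB, GZMK, GNLY, NKG7, SRGN, KLRB1, KLRK1 and KLRD1, and 8 of these 10 had a probe set in the platform's gene table, out of 9155 genes measured. GZMA and GZMK were not found in that table and were not analysed here. KLRB1, KLRK1 and KLRD1 encode receptors of the cell surface, so 5 of the 8 encode proteins of the granule itself. The 8 genes were covered by 10 probe sets, with 2 each for NKG7 and KLRB1.

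In the APP group, gamma delta T cells of calves 301 and 303 received the extract at 42.2 µg/ml for 4 h. In the PBS group, cells of the same 2 calves received phosphate-buffered saline for 4 h. Both groups came from blood of calves given as 1 to 6 months old in the protocols and as neonatal in the design text, and had been sorted to a purity above 97% and left to rest overnight. No breed, genotype or sex is given. RNA of each calf and treatment was hybridised to 1 Affymetrix array, 4 in all, and each difference is known from 2 pairs of arrays.

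Cytotoxic lymphocytes store perforin and granzymes in acidic secretory granules, where serglycin, a proteoglycan with sulphated sugar chains, holds the basic proteins in a condensed form. On contact with a target the granules fuse with the plasma membrane, perforin opens pores, and granzymes enter and cleave substrates that lead to apoptosis. Killer lectin-like receptors on the surface raise or lower the threshold for this release. Gamma delta T cells, which are abundant in the blood of young ruminants, share parts of this equipment with natural killer cells and CD8 T cells.

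Each value is the ratio of a probe set's signal to its own median over the 4 arrays. A ratio of 1 is the middle of that gene's own arrays, so the abundance of 1 gene cannot be set against another, and closeness to background, where changes are compressed, cannot be seen. In RNA of whole sorted populations, fewer cells of a type and less RNA per cell cannot be told apart. Changes are APP minus PBS on the log2 scale, tested with limma with the calf as a block and with Benjamini-Hochberg adjustment over all 9155 genes. With 1 array per calf and treatment, each gene had 1 residual degree of freedom beside 5.86 prior ones that limma draws from all genes. The p-values therefore rest mostly on a spread pooled over the genes of these 4 arrays, and less on each gene's own. They do not measure variation among other calves.

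Perforin and serglycin transcripts were higher with APP in both calves, granzyme B had changes of opposite sign in the animals, and the receptor gene KLRB1 was lower. As deposited, 4 of the 8 genes rose (PRF1, SRGN, KLRD1 and NKG7), 1 fell (KLRB1) and 3 did not pass an adjusted p-value of 0.05 (GNLY, KLRK1 and GZMB). With arrays scaled to hybridization controls, described further on, 0 rose and 7 fell. By the deposited scale 23.0% of all genes rose and 29.7% fell (2104 and 2717 genes), 52.7% in either direction, whereas by the controls 286 rose and 8182 fell. The median change of the 8 was 0.22, against 0.01 for all genes, and 0 of the 8 changed by 2-fold or more in both calves.

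Separation of the groups was common in these data. APP and PBS arrays did not overlap for 6 of the 8 genes, 5 of them with APP higher and 1 with APP lower. Over all genes they did not overlap for 73.8%, with APP higher for 36.6% and APP lower for 37.2%.

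PRF1 encodes perforin, the protein that makes the pores. Its ratio was 1.19 for calf 301 and 1.32 for calf 303 with APP, against 0.738 and 0.789 with PBS. Both APP arrays lay above both PBS arrays, and the change was nearly equal in the animals. PRF1 rose 1.64-fold (log2 change 0.72 ± 0.04, SD, n = 2 calves), by 0.69 for calf 301 and 0.75 for calf 303, with a 95% interval of 0.49 to 0.94 and a limma adjusted p of 0.000801. Of all genes, 6.99% had a higher change.

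SRGN encodes serglycin, the granule proteoglycan. Its ratio was 1.14 for calf 301 and 1.28 for calf 303 with APP, against 0.819 and 0.838 with PBS. The groups did not overlap, and the PBS arrays of the calves were close together. SRGN rose 1.46-fold (0.54 ± 0.09, SD, n = 2 calves), by 0.48 for calf 301 and 0.61 for calf 303, with an interval of 0.31 to 0.78 and a limma adjusted p of 0.00332. A higher change was found for 10.6% of genes. In the RefSeq assembly ARS-UCD2.0, SRGN and PRF1 lie on the same chromosome with 27 annotated genes between them.

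GZMB encodes granzyme B, the serine protease that cleaves caspases and other targets inside the attacked cell. Its ratio was 0.886 for calf 301 and 1.17 for calf 303 with APP, against 0.978 and 1.02 with PBS. The APP arrays were the lowest and the highest of the 4, with both PBS arrays between them. The changes of -0.14 for calf 301 and 0.20 for calf 303 had opposite signs, and their mean was 0.03 ± 0.24 (SD, n = 2 calves) with a limma adjusted p of 0.85. The interval of -0.24 to 0.30 does not reach the lower bound of the interval of PRF1, but the difference between the changes of these genes was not tested.

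GNLY encodes granulysin, whose bovine form is known as NK-lysin, a small membrane-active protein that kills microbes. Its ratio was 1.01 for calf 301 and 1.12 for calf 303 with APP, against 0.944 and 0.977 with PBS. The APP arrays were the higher ones, by a small margin. The change of 0.14 ± 0.07 (SD, n = 2 calves) did not pass (limma adjusted p = 0.251, interval -0.09 to 0.37). The platform table pairs 2 further probe sets with GNLY and another gene together, and these were not used. Cattle carry several related NK-lysin genes, so signal may be shared between copies.

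NKG7 encodes a membrane protein of cytotoxic granules. The mean ratio of its probe sets was 1.1 for calf 301 and 1.03 for calf 303 with APP, against 0.912 and 0.827 with PBS. The groups did not overlap, and NKG7 rose 1.23-fold (0.30 ± 0.04, SD, n = 2 calves, limma adjusted p = 0.0347, interval 0.07 to 0.52). One of its probe sets changed by 0.39 for calf 301 and 0.61 for calf 303, with a limma adjusted p over probe sets of 0.0154. The other probe set changed by 0.16 and 0.03 for the same calves (limma adjusted p over probe sets 0.537), and its groups overlapped. The rise was thus carried mostly by 1 probe set. The SD of 0.04 belongs to the average, and those of the probe sets were 0.16 and 0.09. Of all probe sets, 16.3% rose and 23.6% fell.

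KLRD1 encodes CD94, which pairs with NKG2 proteins to form receptors for class I molecules. Its ratio was 1.22 for calf 301 and 1.06 for calf 303 with APP, against 0.931 and 0.914 with PBS. The APP arrays were the higher pair, with the larger excess in calf 301. KLRD1 rose 1.23-fold (0.30 ± 0.13, SD, n = 2 calves), by 0.39 for calf 301 and 0.21 for calf 303, with an interval of 0.06 to 0.54 and a limma adjusted p of 0.0417. Tested among probe sets, its single probe set did not pass (limma adjusted p = 0.0786).

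KLRK1 encodes NKG2D, an activating receptor for stress-induced ligands. Its ratio was 0.990 for calf 301 and 0.982 for calf 303 with APP, against 0.875 and 1.06 with PBS. Here the PBS arrays were the lowest and the highest, and both APP arrays lay between them. The changes of 0.18 for calf 301 and -0.11 for calf 303 averaged 0.04 ± 0.20 (SD, n = 2 calves, limma adjusted p = 0.805, interval -0.22 to 0.30). KLRK1 and KLRD1 are direct neighbours in ARS-UCD2.0, with 0 annotated genes between them.

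KLRB1 encodes CD161 (NKR-P1), a lectin-like receptor found on many innate-like T cells. Its mean ratio over the probe sets was 0.838 for calf 301 and 0.917 for calf 303 with APP, against 1.24 and 1.08 with PBS. Both APP arrays lay below both PBS arrays. KLRB1 fell 1.32-fold (-0.40 ± 0.24, SD, n = 2 calves), with changes of -0.57 for calf 301 and -0.23 for calf 303, an interval of -0.67 to -0.13 and a limma adjusted p of 0.0235. By size, 75.0% of all genes had a higher change. One of its probe sets fell, with -0.45 for calf 301 and -0.33 for calf 303 (limma adjusted p over probe sets 0.0312), and the other, built on the same transcript record, stood at -0.68 and -0.13 (0.0795).

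**Figure D1:**
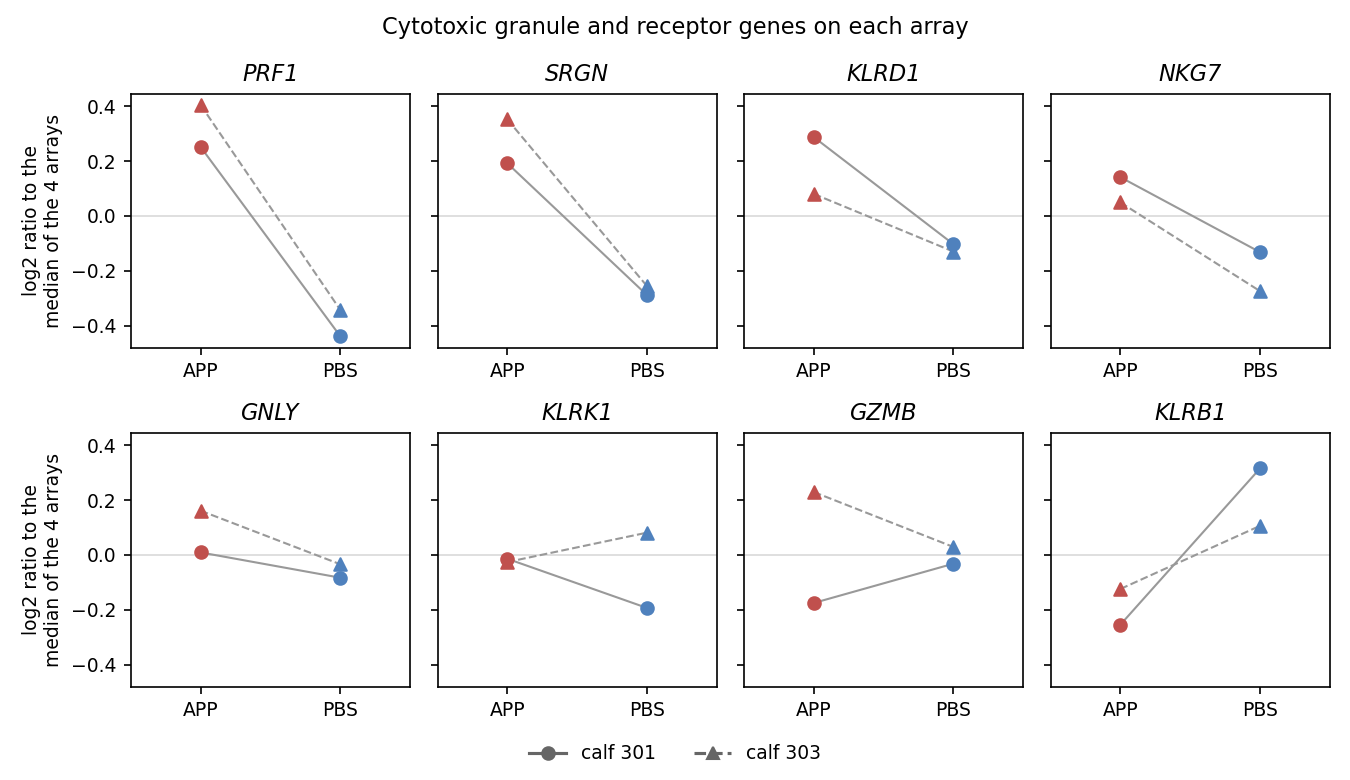
Log2 ratio of each of the 8 genes to its own median over the 4 arrays (y axis), with APP left and PBS right, calf 301 as circles on solid lines and calf 303 as triangles on dashed lines. PRF1 and SRGN are higher with APP in both calves, KLRB1 is lower in both, and the lines of GZMB and KLRK1 run in opposite directions, all on the scale as deposited.

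**Figure D2:**
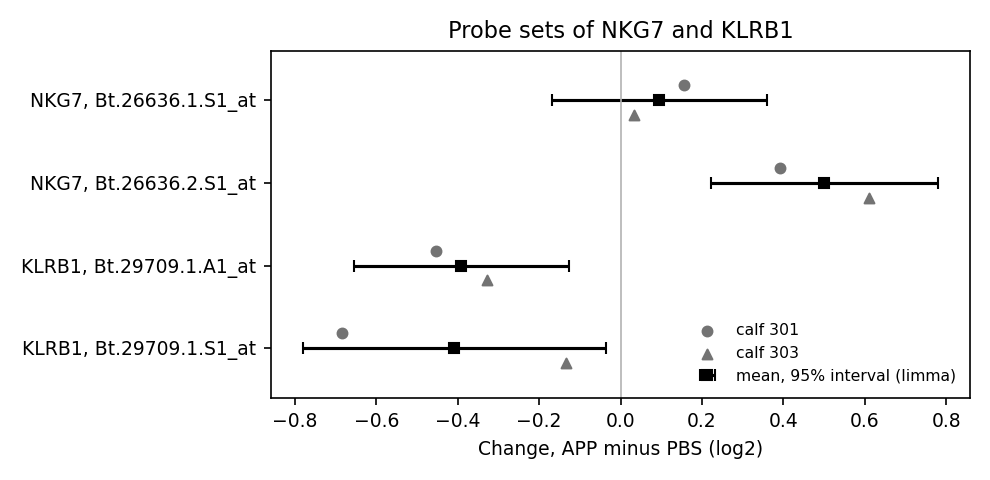
Change of the 2 probe sets each of NKG7 and KLRB1, APP minus PBS in log2 units (x axis), with the mean and 95% limma interval as squares with bars, calf 301 as circles and calf 303 as triangles. The interval of 1 NKG7 probe set crosses 0, and in 1 KLRB1 probe set the calves are far apart at -0.68 and -0.13.

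The calls differed in how much they depended on single arrays and on the calf term. Without the calf as a block, PRF1 (adjusted p = 0.00626) and SRGN (0.0137) rose in limma's test, while KLRB1 (0.0502), NKG7 (0.0802) and KLRD1 (0.0909) did not pass. PRF1 was past the threshold in each of the 4 unblocked limma fits that left out 1 array, with adjusted p between 0.0126 and 0.0381. SRGN was not past it without the PBS array of calf 301 (change 0.53, limma adjusted p 0.0749) or without the PBS array of calf 303 (change 0.56, adjusted p 0.0686). NKG7 (0.107 to 0.374), KLRD1 (0.0588 to 0.305) and KLRB1 (0.0659 to 0.246) were past it in 0 of those limma fits, these being the ranges of adjusted p. After quantile normalization KLRB1 had a limma adjusted p of 0.0514.

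The direction of the rises depended on how the arrays were scaled. Bacterial transcripts bioB, bioC and bioD are hybridization controls normally added in fixed amount to each labelled sample. Their 14 probe sets were higher with APP, by 0.76 for calf 301 and 0.94 for calf 303. Scaling to them lowers the mean change of every gene by 0.85. PRF1 then stood at -0.13, SRGN at -0.31 (limma adjusted p = 0.0486), KLRB1 at -1.25, and NKG7 and KLRD1 at -0.55 each. In this fit limma's prior degrees of freedom were infinite, so every gene had the same SD of 0.154, and each count of calls by the controls rests on that 1 shared spread. Relative to that shared shift the differences between the 8 genes are the ones given above. What set the controls apart was not tested.

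**Figure D3:**
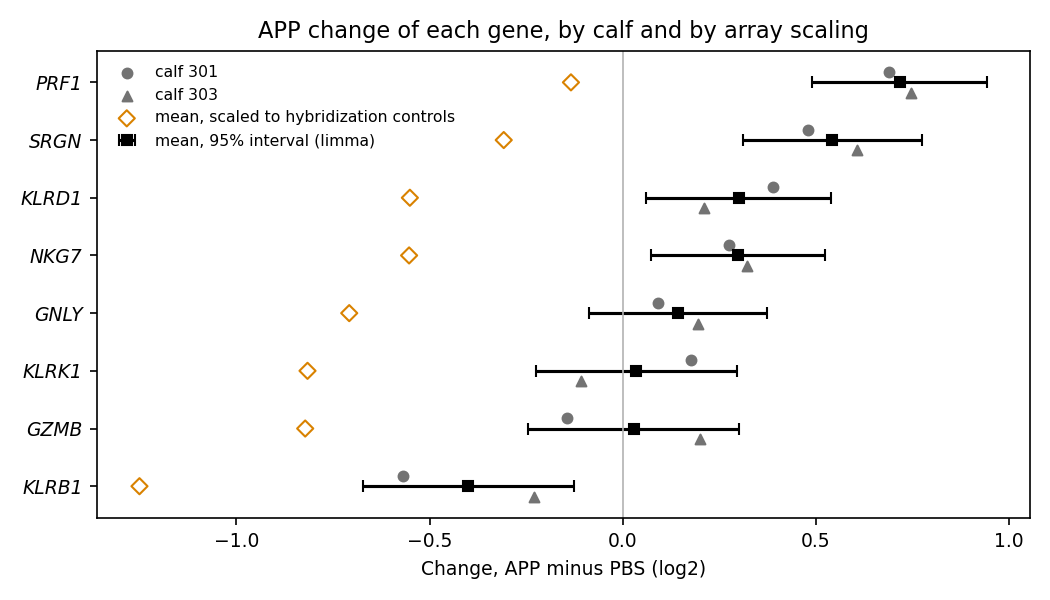
Change of each gene, APP minus PBS in log2 units (x axis), with the mean and its 95% limma interval as squares with bars, calf 301 as circles, calf 303 as triangles and the mean after scaling to the hybridization controls as open diamonds. As deposited, the intervals of PRF1, SRGN, KLRD1 and NKG7 lie above 0 and that of KLRB1 below it, and all 8 diamonds lie below 0.

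Of 14 measured genes for granule contents and the proteins that process or restrain them, the 5 granule genes above included, 8 rose, 1 fell and 5 did not pass, where 23.0% of all genes rose and 29.7% fell. The median change was 0.33 as deposited, and by the hybridization controls it was -0.52, with 0 rises and 9 falls. By those controls 286 of all 9155 genes rose and 8182 fell. CTSC encodes cathepsin C, which removes the propeptide that keeps granzymes inactive, and it rose 1.92-fold (0.80 for calf 301 and 1.08 for calf 303). CALR, the gene of calreticulin, a chaperone found with perforin in granules, rose 1.87-fold (0.89 and 0.91). SERPINB9, the gene of the granzyme B inhibitor that protects the cytotoxic cell itself, rose 1.57-fold (0.56 and 0.75), and its 3 probe sets ranged from 0.08 to 1.35. The related inhibitor gene SERPINB6 rose 1.64-fold and FURIN, a proprotein convertase gene, 1.29-fold. SERPINB1, which encodes an inhibitor of neutrophil-type serine proteases, was the member that fell (-0.94 and -0.68).

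The remaining members of that list did not pass. LAMP1, a membrane glycoprotein exposed when granules are released, stood at 0.26 (limma adjusted p = 0.0931), with -0.08 and 0.59 for its probe sets, and LAMP2 at -0.18 (0.153). CTSW, a cathepsin of cytotoxic lymphocytes, stood at 0.10 for calf 301 and -0.10 for calf 303 (limma adjusted p = 0.987). CALR was not past the threshold in unblocked limma fits that left out APP of calf 301 (0.58) or PBS of calf 303 (0.57), with adjusted p up to 0.215. In each unblocked fit that left out 1 array fewer of the 14 rose, as was so for all genes.

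Of 18 measured genes that carry, tether and fuse granules, 3 rose, 8 fell and 7 did not pass, and falls also outnumbered rises among all genes (29.7% and 23.0%). The median was -0.14 as deposited, and by the hybridization controls it was -0.996, with 0 rises and 17 falls. Among all 9155 genes that scaling gave 286 rises and 8182 falls. RAB27A, the small GTPase that docks granules at the plasma membrane, rose 1.63-fold (0.40 for calf 301 and 1.00 for calf 303), and ran from 0.42 (without PBS of calf 303) to 0.99 with 1 array left out. RAB7A, a GTPase of late endosomes, rose by 0.37 (0.02 and 0.72 for its probe sets), and AP3D1, an adaptor subunit, by 0.30. The largest falls were those of the endosomal fusion proteins STX7 (2.55-fold, -1.52 for calf 301 and -1.18 for calf 303) and STX8 (1.77-fold), of AP3B1, another subunit of the adaptor that AP3D1 belongs to (1.78-fold), and of WIPF1, a partner of the actin regulator WASP (1.69-fold, with -1.07 and -0.44 for its probe sets). Among members not named above, VAMP8 counted as a fall with probe sets at -1.47 and 0.41. UNC13D did not pass, with probe sets from -0.80 to 0.29. In each unblocked fit with 1 array left out fewer of the 18 rose and fewer fell, as was so for all genes.

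Serglycin carries sugar chains that separate enzymes assemble. Of 12 measured genes for building and sulphating such chains, 3 rose, 6 fell and 3 did not pass, beside 23.0% of all genes that rose and 29.7% that fell. The median was -0.23 as deposited, and by the hybridization controls it was -1.08, with 0 rises and 11 falls. Among all 9155 genes that scaling gave 286 rises and 8182 falls. CHST11, a chondroitin sulphotransferase gene, rose 1.61-fold (0.93 for calf 301 and 0.44 for calf 303), and the chondroitin polymerising genes CHPF2 and CHSY1 rose by 0.52 and 0.38. UGDH, which makes the UDP-glucuronate building block, fell 2.49-fold (-1.10 and -1.53), and PAPSS1, which makes the sulphate donor, fell 2.19-fold (-1.10 and -1.16). CSGALNACT2, which starts the chondroitin chain, fell 1.69-fold (-1.07 and -0.44) and DSE, an epimerase of these chains, 1.65-fold (-0.88 and -0.57). CSGALNACT2 ran from -1.04 to -0.47 (without APP of calf 301) with 1 array left out. Without the PBS array of either calf in an unblocked fit fewer of the 12 rose and fewer fell, as was so for all genes.

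Among 16 measured receptors and adaptors of cytotoxic lymphocytes, KLRB1, KLRK1 and KLRD1 included, 3 rose, 4 fell and 9 did not pass, counts no higher than the 23.0% and 29.7% of all genes would give. The median was -0.09 as deposited, and by the hybridization controls it was -0.94, with 2 rises and 14 falls. That scaling gave 286 rises and 8182 falls among all 9155 genes. Beside KLRD1 the rises were those of CRTAM, a receptor of activated cytotoxic cells (14.0-fold), and SLAMF7, a homophilic activating receptor (4.40-fold, 2.27 for calf 301 and 2.00 for calf 303). Beside KLRB1, SLAMF6, of the same receptor family as SLAMF7, fell 2.39-fold (-1.72 and -0.79). The other falls were those of SH2D1A, an adaptor of some SLAM family receptors (1.48-fold), and CD2, an adhesion receptor (-0.29). In unblocked fits with 1 array left out, SH2D1A ran from -1.25 to 0.13, CD2 from -0.85 to 0.27 and SLAMF6 from -1.67 to -0.84. SLAMF7 ran from 1.39 to 2.89 and was not past the threshold when either APP of calf 303 or PBS of calf 301 was left out (limma adjusted p up to 0.114). In each of these fits fewer members fell, and fewer rose except without APP of calf 301. Among all genes fewer rose and fewer fell in each.

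All 5 measured genes of granule-independent killing rose as deposited, beside 23.0% of all genes. By the hybridization controls 1 rose and 2 fell, beside 286 rises and 8182 falls among all 9155 genes. Their median was 0.84 as deposited and -0.01 by the controls. FASLG, the gene of Fas ligand, rose 1.37-fold (0.42 for calf 301 and 0.50 for calf 303), with 0.11 and 0.81 for its probe sets. Its receptor gene FAS rose 1.79-fold, the adaptor gene FADD 1.31-fold, the lymphotoxin gene LTA 2.22-fold and the cytokine gene TNF 6.18-fold. Without the PBS array of either calf, fewer of the 5 rose in unblocked fits, as was so for all genes. Of 9 measured effector cytokine genes, TNF and LTA among them, 8 rose and 0 fell as deposited, and 7 rose and 1 fell by the hybridization controls, with medians of 2.12 and 1.27. The member that did not pass as deposited was IFNG, the interferon gamma gene, at -0.03 (limma adjusted p = 0.838). By the controls IFNG stood at -0.88.

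Transcription factors tied to perforin and granzyme expression in mouse and human lymphocytes had 11 genes on the array. Of these 5 rose and 4 fell while 2 did not pass, beside 23.0% and 29.7% of all genes. The median was 0.19 as deposited, and by the hybridization controls it was -0.66, with 2 rises and 6 falls. That scaling gave 286 rises and 8182 falls among all 9155 genes. ID2, an inhibitor of E proteins, rose 8.20-fold (2.08 and 3.99 for its probe sets), NFIL3, needed for natural killer cell development in mice, 6.55-fold, STAT5B, which relays interleukin-2 signals, 1.89-fold, and IKZF3, of the Ikaros family, 1.53-fold. TOX, a factor of T cell development, fell 2.11-fold (-1.42 for calf 301 and -0.75 for calf 303), TCF7, a factor of less differentiated T cells, 1.62-fold, ETS1 1.31-fold and STAT4, which relays interleukin-12 signals, 1.28-fold. With 1 array left out, TOX ran from -1.90 to -0.26 (without APP of calf 301), ETS1 from -0.64 to -0.14 (without APP of calf 303) and STAT4 from -0.48 to -0.23 (without APP of calf 301). In each unblocked fit with 1 array left out fewer members fell, and fewer rose except without APP of calf 301. Among all genes fewer rose and fewer fell in each. TBX21 and EOMES, the best known factors of this programme, were not analysed here.

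**Figure D4:**
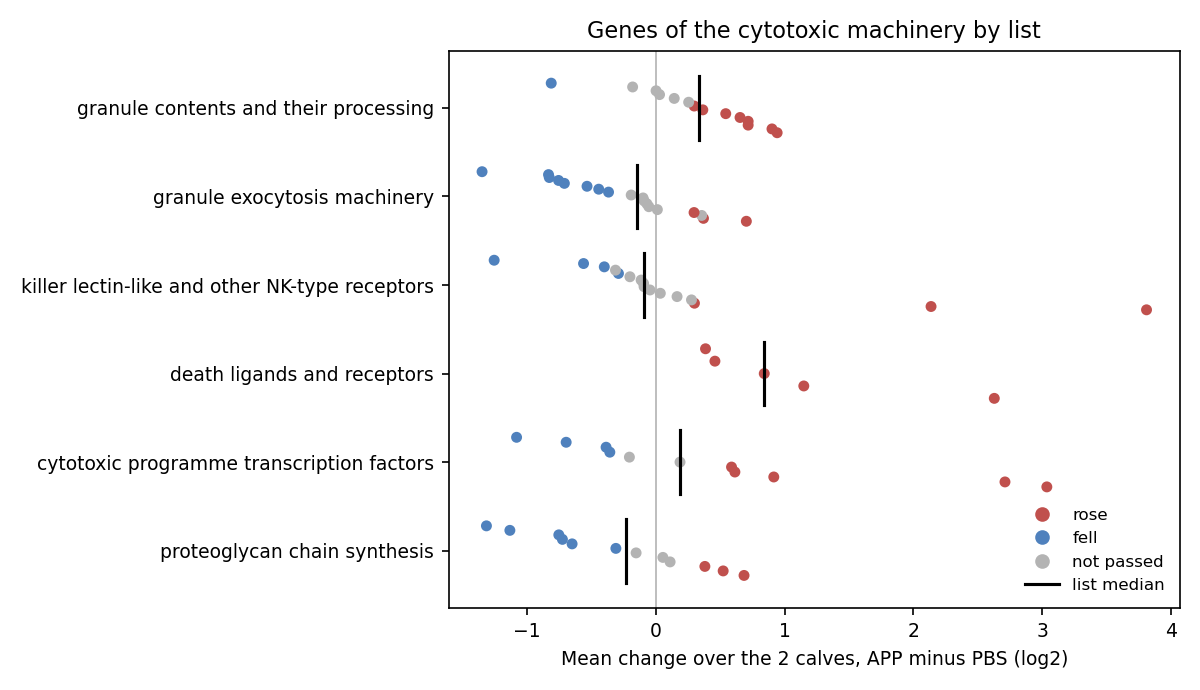
Mean change over the 2 calves, APP minus PBS in log2 units as deposited (x axis), of each measured gene in 6 lists, coloured by whether it rose, fell or did not pass limma's test, with the list median as a vertical line. The median of the granule contents is 0.33 and those of exocytosis and proteoglycan chain genes are -0.14 and -0.23, and CRTAM lies farthest right among the receptors.

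The animals were compared as well, as calf 303 minus calf 301 with the treatment in the model. Of the 8 genes, 0 passed at an adjusted p of 0.05 in limma and 0 at an unadjusted p of 0.05, where 1.70% of all genes passed the adjusted one. The differences lay between -0.12 (NKG7 and KLRD1) and 0.23 (GZMB). The NKG7 value averages probe sets at 0.26 and -0.495, neither past the test (limma adjusted p over probe sets 0.314 and 0.138). Of the 16 receptor genes, 5 were higher in calf 303 by limma, namely CD96 by 1.47 (adjusted p = 0.00126), SLAMF7 by 1.37 (0.00267), SH2D1A by 1.33 (0.00195), CD2 by 1.1 (0.00382) and CD244 by 0.81 (0.0277). The probe sets of CD2 differed by 1.91, 1.13 and 0.26, and the last did not pass (limma adjusted p over probe sets 0.335). Of the granule list, CTSW was higher in calf 303 by 0.60 (limma adjusted p = 0.046) and CALR was lower by limma (-0.65, adjusted p = 0.0272). CD8B, a chain of the CD8 coreceptor, was higher in calf 303 by 2.30 (limma adjusted p = 0.000499), and CD8A by 1.59 (0.00673). The other measured alpha beta T cell genes, CD4 (-0.11, limma adjusted p = 0.607) and CD28 (0.11, 0.72), did not pass. After quantile normalization CD96, SLAMF7, SH2D1A, CD2, CD244, CTSW, CALR and CD8A did not pass, with limma adjusted p between 0.0621 and 0.183. With each array centred on its median, CD244 (limma adjusted p 0.0611) and CTSW (0.0783) did not pass. CTSW also did not pass by the hybridization controls (0.0722 in limma). Tested as single probe sets, CD244 (limma adjusted p 0.0696), CALR (0.073) and CTSW (0.073 and 0.13) did not pass.

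**Figure D5:**
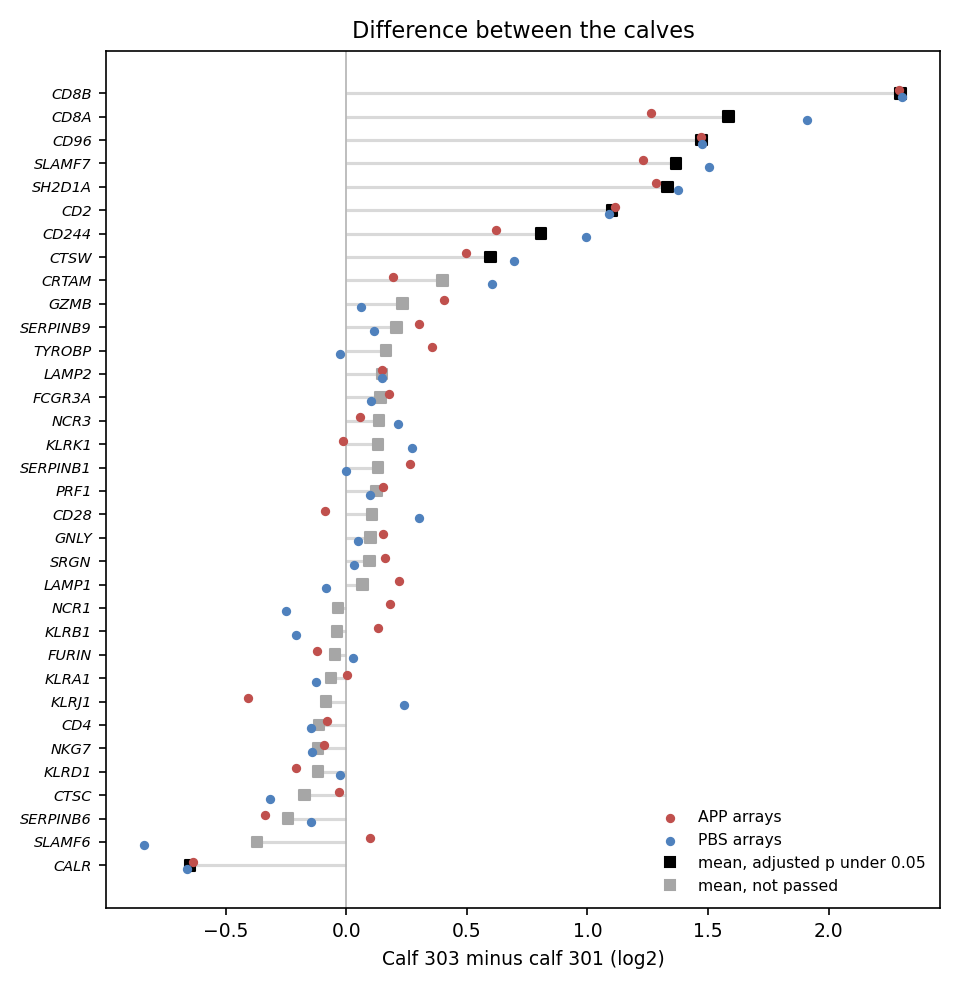
Difference between the animals, calf 303 minus calf 301 in log2 units (x axis), for granule, receptor and alpha beta T cell genes, with the APP arrays in red, the PBS arrays in blue and the mean as squares, black where the adjusted p was under 0.05. CD8B, CD8A, CD96, SLAMF7, SH2D1A, CD2, CD244 and CTSW lie to the right in both treatments, CALR lies to the left, and the means of the 8 genes lie between -0.12 and 0.23.

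Markers of the sorted cells and of other cells were read as ratios, so whether a defining marker was present cannot be seen and the labelled cell type cannot be checked by level. Shares of 23.0% and 29.7% of all genes rose and fell beside the counts that follow. By the hybridization controls 286 of all 9155 genes rose and 8182 fell. Of 10 gamma delta T cell genes, 1 rose and 5 fell as deposited, and 0 rose and 9 fell by the hybridization controls. CD5 was the one that rose (0.62). The largest falls were those of CD7 (-1.58), CD163L1 (-1.08), WC1.3 (-0.86) and CD247 (-0.53). Of 6 natural killer cell genes, 2 rose (KLRD1 and NKG7, both among the 8) and 0 fell as deposited. By the controls 0 rose and 6 fell. Without the calf term 0 rose or fell, where 1399 of all genes rose and 2161 fell. With 1 array left out fewer of the 6 rose, as was so for all genes. The mean log2 ratio of the 6 was 0.01 for calf 301 and 0.06 for calf 303 with APP, against -0.02 and -0.08 with PBS. Of 4 alpha beta T cell genes, CD8A rose (1.40 for calf 301 and 0.75 for calf 303), CD8B fell (-0.63 and -0.65) and 2 did not pass, while 0 rose and 3 fell by the controls. In unblocked fits with 1 array left out, CD8A ran from 0.12 to 2.03 and CD8B from -1.79 to 0.51. CD8 chains also occur on some gamma delta T cells.

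Myeloid markers bear on SRGN, which monocytes, mast cells and platelets express too. Over all 9155 genes 23.0% rose and 29.7% fell as deposited, and 286 genes rose and 8182 fell by the hybridization controls. Of 8 monocyte and dendritic cell genes 2 rose and 0 fell as deposited, and 1 rose and 7 fell by the hybridization controls. The rises were those of CD68, a lysosomal protein gene of macrophages (4.95-fold), and CD14, the lipopolysaccharide coreceptor gene (1.37-fold, 0.27 without APP of calf 301 to 0.64), while the median change of the 8 was 0.09. Their mean log2 ratio was 0.12 for calf 301 and 0.19 for calf 303 with APP, against -0.24 and -0.17 with PBS. Of 9 neutrophil and mast cell genes 2 rose and 0 fell (0 and 8 by the controls), with a median change of 0.18 and means of 0.06 and 0.12 with APP, against -0.24 and 0.06 with PBS. Of 4 platelet genes 1 rose and 0 fell (0 and 3 by the controls), with a median change of 0.06 and means of 0.18 and -0.01 with APP, against -0.02 and -0.05 with PBS. Of 4 B cell genes 0 rose and 3 fell (0 and 4 by the controls). With 1 array left out, no more of the monocyte, neutrophil or platelet genes rose than with all arrays, and fewer of all genes did. The part of other cells in the changes of the 8 genes was not tested.

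Genes with a pattern like that of a called gene were sought by the Euclidean distance of centred log2 ratios over the 4 arrays. Closest to PRF1 were HSPD1 (distance 0.0307), TIMP3 (0.0326) and PPP1R3F (0.0362), and closest to SRGN were ASB2 (0.00736), CAPZB (0.0271) and MTF1 (0.0288). The nearest to KLRB1 were MAPT (0.0232), MED4 (0.0316) and TMEM63A (0.0353). STT3B (0.00909), PCSK1N (0.0118) and TGFB3 (0.0201) were nearest to NKG7, and CCL19 (0.0208), APOC3 (0.0226) and AMELX (0.0247) to KLRD1. With 4 arrays such likeness is common, and within a distance of 0.1 there were 29 genes for PRF1, 67 for SRGN, 43 for KLRB1, 229 for NKG7 and 183 for KLRD1.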

How the data were processed

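The authors summarised Affymetrix probes with RMA, per the submitters' processing notes, and no version or option is given in the sources used here. The values the authors deposited are linear ratios of each probe set to its own median over the 4 arrays. This unit was found from the values, because after 1 factor per array the average of a probe set's middle pair lay between 0.99948 and 1.00054 throughout. The ratios were log2 transformed with no pseudocount or filter. Leaving out 112 control probe sets kept 24016, of which 13292 had 1 gene symbol, 86 several and 10638 none. Symbols were updated by Entrez identifier from RefSeq (13263 matched, ARS-UCD2.0, used for names and gene order only), and probe sets of a gene were averaged.

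APP was compared with PBS by limma 3.58.1 in R 4.3.3, two-sided, with the calf as a block, since array titles give both animals under both treatments. As a check of the pairing, the calf difference under APP and that under PBS had r = 0.509 over genes. There was 1 residual degree of freedom beside 5.86 prior ones, and the code was tested on simulated data. An exact permutation test of 2 against 2 arrays cannot go below p = 0.33 and was not made. The number of arrays limits the precision.

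The genes and the 14 lists (192 symbols, 121 matched by symbol, 4 by synonym, 67 not measured) were chosen with earlier results of these data known. Named are the 8 genes, every granule content gene, up to 4 members per direction and list with the largest change past the threshold, and the 3 genes nearest in pattern to each called gene. FADD, IFNG, VAMP8, UNC13D and the genes named for the calves were chosen after their values were seen. Probe sets of a named gene that differed by over 0.5 are given. The alternatives were no block, 3 other scalings, a pseudocount of 0.1, robust eBayes, single probe sets, a minimum range of 0.2 and leaving out each array.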

Additional observations from a re-analysis of the deposited data

How the results depend on the processing

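Without the replicate block, 1399 genes rose and 2161 fell, against 2104 and 2717 with it, and of the 8 genes 2 rose and 0 fell, since NKG7 (0.30), KLRD1 (0.30) and KLRB1 (-0.40) no longer passed. After quantile normalization KLRB1 stood at -0.36 and 0 of the 8 fell. Scaling to the hybridization controls gave 286 rises and 8182 falls among all genes, and 0 rises and 7 falls among the 8, a shift that follows from its construction. The changes became -0.13 (PRF1), -0.82 (GZMB), -0.71 (GNLY), -0.55 (NKG7), -0.31 (SRGN), -0.82 (KLRK1) and -0.55 (KLRD1). Others that turned negative under it were CTSW (-0.85), SERPINB9 (-0.20), SERPINB6 (-0.14), LAMP1 (-0.60), FURIN (-0.49), RAB27A (-0.15), RAB7A (-0.48), AP3D1 (-0.55), FASLG (-0.39), FAS (-0.009), FADD (-0.46), IKZF3 (-0.24), CHST11 (-0.17), CHPF2 (-0.33), CHSY1 (-0.47), CD14 (-0.39) and CD5 (-0.23). For calf 303 minus calf 301 it gave -0.056 (PRF1), -0.08 (GNLY), -0.084 (SRGN) and -0.05 (KLRK1), none past the test before or after. Tested as single probe sets, 3919 rose and 5672 fell, more features being tested. These were smaller shares, 16.3% and 23.6% of 24016 probe sets, against 23.0% and 29.7% of genes. NKG7 then had 0.095, KLRB1 -0.41 and KLRD1 0.30 in probe sets that did not pass, and CTSW (-0.035), LAMP1 (-0.084) and LAMP2 (0.037) had a probe set of the other sign, as had the calf difference of NKG7 (0.26) and KLRB1 (0.044).

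Leaving out 1 array needed a fit without the calf term, in which the lone array of a treatment was assumed to vary like the other treatment. All genes then gave 745 to 1292 rises and 1305 to 2012 falls, and the 8 genes 1 to 2 rises and 0 falls. The changes ran from 0.64 to 0.79 (PRF1), 0.46 to 0.62 (SRGN), 0.23 to 0.37 (NKG7), 0.20 to 0.40 (KLRD1), 0.07 to 0.22 (GNLY), -0.17 to 0.23 (GZMB), -0.10 to 0.17 (KLRK1) and -0.50 to -0.30 (KLRB1). Signs turned for CTSW (-0.35 to 0.35), SH2D1A (-1.25 to 0.13), CD2 (-0.85 to 0.27) and CD8B (-1.79 to 0.51). The calf difference gives no value in these fits. Median centring, a pseudocount of 0.1, robust eBayes and the range filter turned no sign and moved no call among the 8 genes. A filter on dim probes and another background correction cannot be made from ratios. The causes of these changes were not tested.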
